A study of Mus musculus with 12 samples.

Results

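Conjugating enzymes of the glutathione S-transferase (Gst), UDP-glucuronosyltransferase (Ugt) and sulfotransferase (Sult) families were followed in mouse liver by polyA RNA-seq. Members were taken by symbol, as Gst followed by a class letter a, k, m, o, p, t or z and a digit, as Ugt1, Ugt2 or Ugt3, or as Sult. This gave 59 genes of 23991, with 21 Gst, 20 Ugt and 18 Sult genes, each represented by its most abundant transcript in the table. All animals were male C57/Bl6 mice, 4 weeks old at the start of a feeding period of 16 weeks. The chow group (4 libraries) received chow alone. The HFD group (4 libraries) received a high-fat diet with cholesterol added at 0.2% by weight. The HFD+ASBTi group (4 libraries) received that same diet with SC-435 at 0.006%, an inhibitor of ASBT, the ileal transporter that recovers bile acids from the gut. The design asks what the diet does to liver RNA, and what the inhibitor adds to it.

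Conjugation is the second phase of detoxification, in which a polar group is attached to a drug, a hormone or a reactive metabolite so that it can be exported into bile or urine. Gst enzymes attach glutathione to electrophiles such as lipid peroxidation products, Ugt enzymes attach a sugar, usually glucuronic acid, to phenols, steroids, bilirubin and bile acids, and Sult enzymes attach sulfate. In liver all 3 families are expressed mainly in hepatocytes, and many members respond to the receptors CAR and PXR and to the oxidative stress factor NRF2.

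Library totals, recovered from the deposited RPKM values, ran from 8967550 to 13244195 reads. The RPKM values (reads per kilobase, scaled to library depth) were divided by the genomic span, introns included, so levels of different genes are compared below only as RPM (reads scaled to library depth alone) per kilobase of spliced transcript. Markers of hepatocytes were abundant in every library, with a summed level of 2764 to 4674 RPKM over 8 genes. Nothing in the labels ties the libraries to separate animals. The p-values therefore reflect variation among these libraries only, and part of it may be technical. Chow C7, a column matched to chow but to no single sample label, stood apart for these genes. It was the lowest of the 4 chow libraries in 25 of the 36 members tested (18 of 29 with the 8 overlapping Ugt1a rows counted once) and in 13 of 16 Gst genes, against 33.2% of all genes tested. Its level of the clock gene Arntl was 0.0586 RPKM, with 0.0164, 0.0123 and 0.0191 in chow 1, chow 2 and chow 4, though HFD+ASBTi 1 and 2 (0.0289 and 0.0358) also stood above HFD+ASBTi 3 and 4 (0.00627 and 0.00509). Its summed level of 9 macrophage markers was 31.7 RPKM, while chow 1, chow 2 and chow 4 had 13.1, 16.8 and 19.9. The part of this library in the results was not tested beyond leaving it out. In whole liver, fewer cells of a type and less RNA per cell cannot be told apart.

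Of the 59 members, 36 passed the filter for testing (4 or more of the 12 libraries at 0.5 RPKM or higher), namely 16 Gst, 17 Ugt and 3 Sult genes. Of the 23 others, 16 had fewer than 100 reads over the 12 libraries together, and 3 of these, Sult2a4, Sult2a5 and Sult2a6, were at 0 in all of them. Per kilobase of spliced transcript the highest chow level was that of Gsta3, an alpha class enzyme, at 732 ± 145 RPM (SD, n = 4). Gstz1 followed at 368 ± 16.1 RPM per kilobase and Gstm1, the main mu class gene, at 273 ± 55.4. Ugt2b5 stood at 226 ± 12, Gstp1 at 219 ± 40.7 and the Ugt1a locus, taken over the Ugt1a1 row, at 195 ± 26.3, and these neighbours differed by less than their spread. The highest Sult gene was Sult1a1, a phenol sulfotransferase, at 83.5 ± 20.8 RPM per kilobase. Summed over each family, with 1 row for the Ugt1a locus, Gst genes took 2006 ± 255 RPM in chow, 1825 ± 136 in HFD and 1672 ± 260 in HFD+ASBTi, and the ranges of the groups overlapped. Ugt genes took 2103 ± 56.5, 2282 ± 392 and 2040 ± 104 RPM, also with overlap. Sult genes took 219 ± 49.6, 165 ± 26.4 and 175 ± 38.9 RPM, again with overlap.

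**Figure D1:**
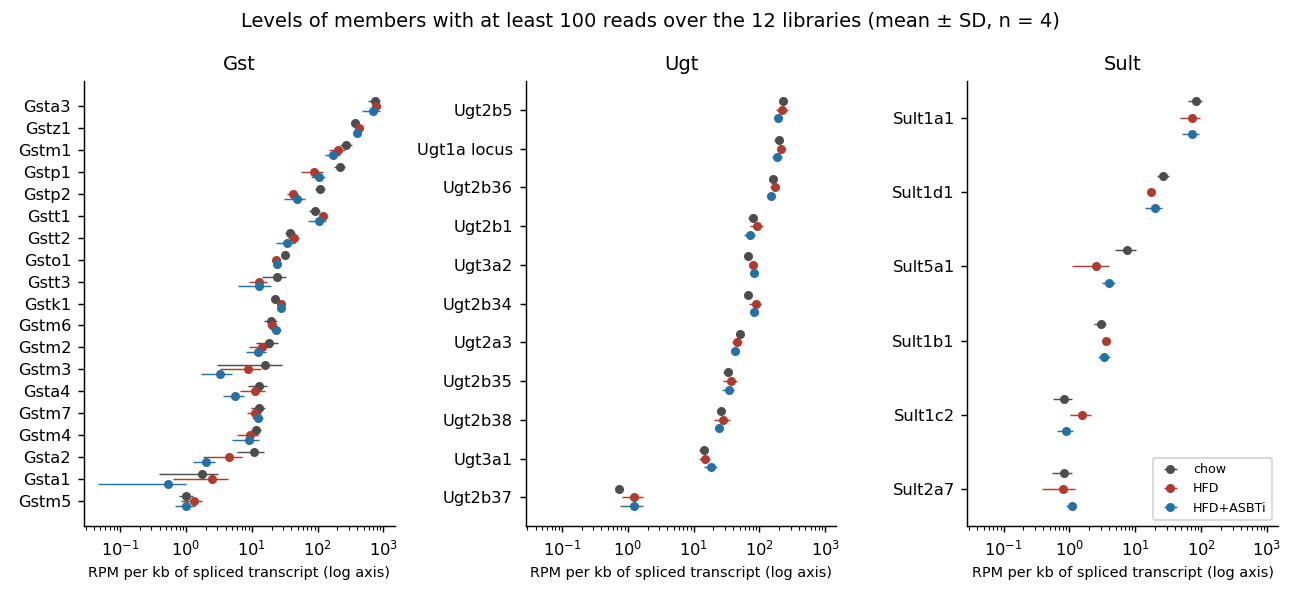
Level of each member with at least 100 reads over the 12 libraries, as mean ± SD (n = 4) of RPM per kilobase of spliced transcript, on a log axis, by group. The Gst genes run from 732 (Gsta3) to 1.02 (Gstm5) in chow, and the 8 Ugt1a rows are shown as 1 locus.

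Between HFD and chow, 4 of the 36 tested members fell and none rose. The pi class genes Gstp1 and Gstp2 fell 2.46-fold and 2.56-fold by their means, the omega class gene Gsto1 fell 1.36-fold, and Sult5a1 fell 3.0-fold. No Ugt gene was called. The test was limma on log2(RPKM + 0.5) with Benjamini-Hochberg adjustment over the 6325 genes tested and a threshold of 0.05 (adjusted p). Among those genes 7.65% were called higher and 4.46% lower, 12.1% in all, so that 4 lower of 36 stands against a background of 4.46%. In each comparison the 36 members include 8 overlapping Ugt1a rows (29 members with the locus counted once). Gstp1 and Gstp2 also share sequence, so these counts are not of independent genes. The groups did not overlap in 5 members (13.9%), against 21.3% of all genes tested. The median log2 change was 0.05 over the members, -0.04 with the Ugt1a locus counted once, and 0.02 over all genes tested. By family it was -0.24 for the 16 Gst, 0.10 for the 17 Ugt (8 of them overlapping Ugt1a rows) and -0.53 for the 3 Sult genes. With RPM in place of RPKM, 4 of 43 tested members were called, all lower, against 3.33% of 13312 genes called lower and 9.84% in all. With voom on the recovered reads 4 of 43 members were also called lower, where 3.29% of genes were called lower and 9.14% in either direction.

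**Figure D2:**
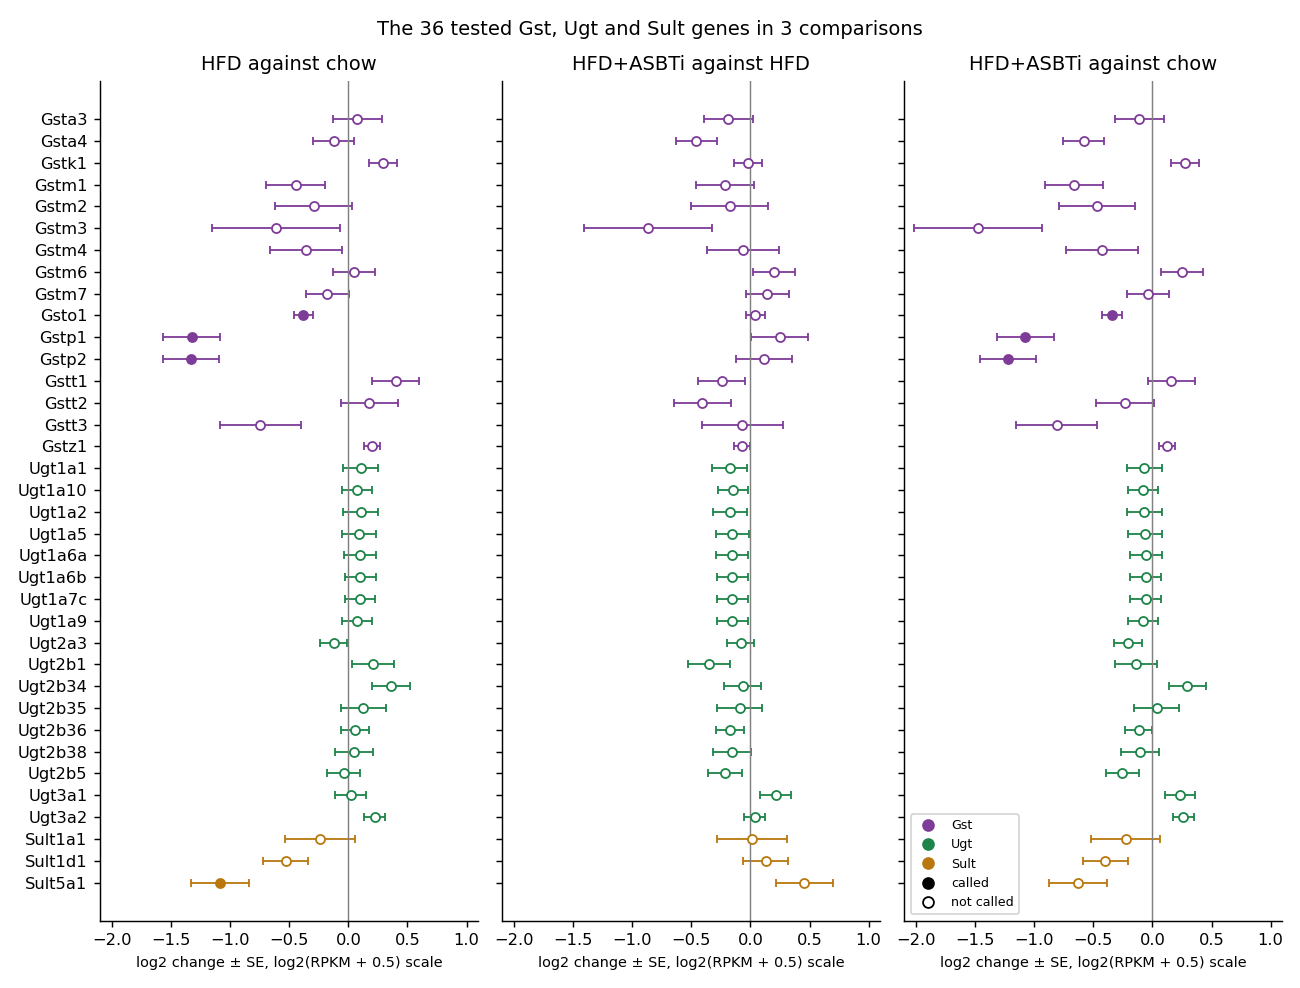
Log2 change with its standard error on the log2(RPKM + 0.5) scale for the 36 tested members in the 3 comparisons, coloured by family; filled circles passed the test. The filled circles are Gstp1, Gstp2, Gsto1 and Sult5a1 against chow in HFD, and the first 3 of these in HFD+ASBTi, while the 8 Ugt1a rows line up because they share reads.

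The pi class genes Gstp1 and Gstp2 encode near-identical cytosolic transferases that are high in male mouse liver. Below and throughout, values in all libraries are given in the order chow 1, chow 2, chow C7, chow 4, then HFD 1 to 4, then HFD+ASBTi 1 to 4. Gstp1 was measured at 65.4, 83.2, 82.9 and 56.2 RPKM in chow, at 45.0, 26.5, 24.4 and 21.2 in HFD, and at 34.0, 31.4, 25.8 and 45.2 in HFD+ASBTi. Every chow library lay above every library of the other groups, which overlapped each other. Gstp2 was measured at 38.8, 53.1, 49.8 and 38.0 RPKM in chow, at 22.2, 16.7, 16.6 and 14.6 in HFD, and at 17.9, 21.2, 11.6 and 28.1 in HFD+ASBTi. Again chow did not overlap either diet group. In HFD Gstp1 was 2.46-fold lower than in chow by the means (71.9 ± 13.4 against 29.3 ± 10.7 RPKM, SD, n = 4). On the fitted scale it fell by 1.33 ± 0.24 (SE; limma adjusted p = 0.00687). Gstp2 was 2.56-fold lower by the means (44.9 ± 7.67 against 17.5 ± 3.24 RPKM), and fell by 1.33 ± 0.24 on the fitted scale (limma adjusted p = 0.00616). Both calls held without each of the 12 libraries in turn.

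Gstp1 and Gstp2 lie next to each other on chromosome 19, and their reads can be split between them only in part. Of the 50-base stretches of the Gstp1 transcript, 62.3% occur also in that of Gstp2, and the aligned transcripts are identical at 90.4% of positions. The ratio of Gstp2 to Gstp1 reads ran from 0.348 to 0.534 across the 12 libraries, without a separation of the groups. The pair is therefore reported as uncertain as to which gene carries the reads. The promoters, 250 bases before to 50 after the start, are shown because the genes fell together and are copies also upstream. They are taken from RefSeq, build GRCm38.p6, minus strand, Gstp1 at chr19:4037863-4038162 and Gstp2 at chr19:4042172-4042471, and the capitals mark a match to the AP-1 element TGANTCA.
Gstp1: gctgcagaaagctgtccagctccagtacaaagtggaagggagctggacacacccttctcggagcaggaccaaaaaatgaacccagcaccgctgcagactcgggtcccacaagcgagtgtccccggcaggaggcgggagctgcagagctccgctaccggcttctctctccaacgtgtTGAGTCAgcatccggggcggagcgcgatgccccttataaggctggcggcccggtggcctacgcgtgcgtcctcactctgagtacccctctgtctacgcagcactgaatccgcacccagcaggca
Gstp2: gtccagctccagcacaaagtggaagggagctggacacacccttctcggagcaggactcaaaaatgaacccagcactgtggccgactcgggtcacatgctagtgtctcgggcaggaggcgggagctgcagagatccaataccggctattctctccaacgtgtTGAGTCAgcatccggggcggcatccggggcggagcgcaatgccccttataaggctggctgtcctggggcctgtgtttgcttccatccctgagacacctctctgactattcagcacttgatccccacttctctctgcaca
Aligned to each other, these promoters were identical at 76.4% of positions. The match begins 74 bases before the Gstp1 start and 89 bases before the Gstp2 start, and the same letters, searched on both strands, occur in 7.81% of 32851 RefSeq promoters and in 12 of the 61 member promoters in the table (19.7%). The antioxidant response element core TGACNNNGC, to which NRF2 binds, occurs in 12.4% of all promoters and in 3 of the 61 member promoters, those of Gsta3, Gstm5 and Gstm7, and not in these 2 windows. Other forms of these elements were not searched for. A match or its absence is therefore a description of letters only, and binding was not measured.

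Gsto1, an omega class enzyme with thiol transferase and dehydroascorbate reductase activity, was lower in HFD with little spread. It was measured at 3.43, 3.88, 3.81 and 4.29 RPKM in chow, at 2.83, 2.79, 2.57 and 3.17 in HFD, and at 2.98, 3.07, 3.08 and 2.59 in HFD+ASBTi. The lowest chow library lay above the highest of either other group. The means were 3.85 ± 0.355 RPKM in chow and 2.84 ± 0.252 in HFD (SD, n = 4), and the fitted fall was 0.38 ± 0.08 on the log2 scale (limma adjusted p = 0.0128). Its genomic span overlaps that of Cfap43 in the GRCm38 annotation, and since the strand is not known to have been used in counting, reads of the 2 genes cannot be told apart. The other omega gene, Gsto2, had 4 reads over all libraries.

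**Figure D3:**
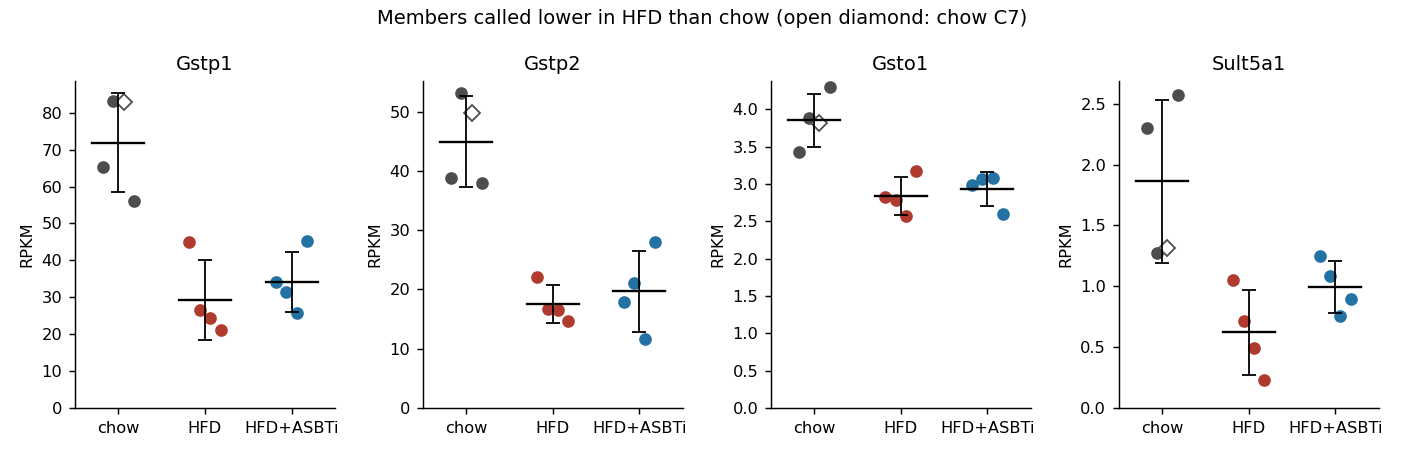
RPKM in each library for the 4 members called lower in HFD than in chow; lines are group means with SD (n = 4), and the open diamond is chow C7. All chow points lie above all HFD points in each panel, for example 56.2 to 83.2 against 21.2 to 45.0 RPKM for Gstp1.

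The alpha class members differed among themselves. Gsta3, the most abundant, was measured at 30.6, 25.6, 19.1 and 29.5 RPKM in chow, at 26.7, 27.1, 30.7 and 24.5 in HFD, and at 16.6, 21.7, 34.4 and 25.8 in HFD+ASBTi. The groups overlapped, and the fitted change in HFD was 0.07 (95% interval -0.40 to 0.55). Gsta4, which conjugates the lipid aldehyde 4-hydroxynonenal, stood at 0.916, 0.717, 0.400 and 0.878 RPKM in chow, 0.592, 0.446, 0.482 and 0.995 in HFD and 0.215, 0.363, 0.443 and 0.231 in HFD+ASBTi. Chow and HFD overlapped, whereas each HFD+ASBTi library lay below each HFD library. In HFD+ASBTi Gsta4 was 2.33-fold lower than in chow and 2.01-fold lower than in HFD by the means. On the log2(RPKM + 0.5) scale neither difference was called (-0.58, limma adjusted p = 0.0721, and -0.46, limma adjusted p = 0.453). On the log2(RPM + 0.5) scale, which shrinks a gene of such low RPKM less, the difference from chow was -1.14 (limma adjusted p = 0.0383). On the RPKM scale it was called after scaling to equal medians (-0.63, limma adjusted p = 0.0478). There it was called also without chow C7 (limma adjusted p = 0.0399) or without HFD 4 (limma adjusted p = 0.0413). With voom on the recovered reads it was not called (-1.21, limma adjusted p = 0.0660). The RPM call held in 6 of 12 fits with 1 library left out, with adjusted p up to 0.111, and was lost without chow 1, chow 2, chow 4, HFD+ASBTi 1, HFD+ASBTi 2 or HFD+ASBTi 4.

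Gsta1 and Gsta2 are the classical inducible alpha genes, and both were below the RPKM filter. Gsta2 was chosen for description after its values were seen. It had 13.7, 7.97, 4.40 and 10.9 RPM in chow, 3.71, 2.42, 2.24 and 7.32 in HFD, and 1.21, 2.57, 1.90 and 1.3 in HFD+ASBTi, which are 12 to 149 reads per library. All HFD+ASBTi libraries lay below all chow libraries, while HFD overlapped both. Gsta2 was 5.29-fold lower in HFD+ASBTi than in chow by the means (1.75 ± 0.630 against 9.25 ± 3.99 RPM, SD, n = 4). The fitted log2(RPM + 0.5) change was -2.05 ± 0.36 (SE; limma adjusted p = 0.00547), and it was called without each of the 12 libraries in turn. In HFD against chow the fitted change of Gsta2 was -1.17 (limma adjusted p = 0.0538), which was called without chow C7 (-1.46, limma adjusted p = 0.0203) or HFD 4 (-1.49, limma adjusted p = 0.0135). Between HFD+ASBTi and HFD it was -0.88 (limma adjusted p = 0.603). Gsta1 had 28, 26, 1 and 11 reads in chow, 7, 14, 27 and 58 in HFD, and 8, 10, 0 and 2 in HFD+ASBTi. Its groups overlapped, with HFD 4 the highest at 4.38 RPM and HFD+ASBTi 3 at 0, where 3 reads would be 0.335 RPM. Transcript stretches of Gsta2 are shared with Gsta1, Gm10639 and others for 64.2% of 50-base words, and of Gsta1 for 89.7%, so the assignment of these reads is uncertain.

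**Figure D4:**
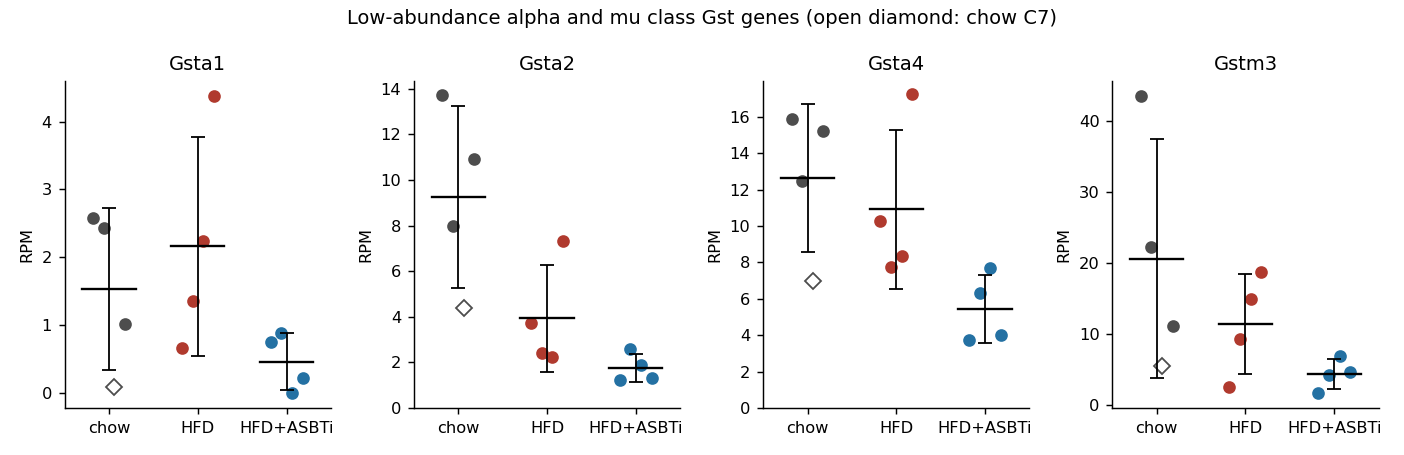
RPM in each library for Gsta1, Gsta2, Gsta4 and Gstm3; lines are group means with SD (n = 4), and the open diamond is chow C7. For Gsta2 the HFD+ASBTi points run from 1.21 to 2.57 RPM, below all chow points at 4.40 to 13.7, while the groups overlap for Gsta1 and Gstm3.

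Among the mu class genes, none of the 6 tested was called in any comparison. In HFD, 5 of the 6 had a log2 change below 0, against 45.8% of all genes tested, and the median was -0.33, against 0.02 over all genes. Of the 50-base words of Gstm1 23.1% occur also in other genes, and of Gstm3 28.8%, so their reads are partly uncertain. For Gstm4 and Gstm7 the share was 0%. Gstm1 stood at 70.9, 72.3, 45.9 and 57.0 RPKM in chow, 28.3, 45.2, 55.1 and 54.4 in HFD, and 34.0, 50.5, 43.1 and 28.3 in HFD+ASBTi. The groups overlapped through chow C7, and the change from chow was -0.45 in HFD (limma adjusted p = 0.259) and -0.66 in HFD+ASBTi (limma adjusted p = 0.132). Gstm3 had the widest range of all tested members, 25.9-fold between its lowest and highest library. Its values were 7.94, 4.07, 0.997 and 2.04 RPKM in chow, 0.469, 1.70, 2.73 and 3.42 in HFD, and 0.306, 0.778, 1.26 and 0.853 in HFD+ASBTi. With that spread a mean 4.71-fold below chow in HFD+ASBTi was not called (log2 change -1.48, 95% interval -2.70 to -0.25, limma adjusted p = 0.129).

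Theta, kappa and zeta class genes were not called. Gstt1, which handles small halogenated molecules, stood at 7.02, 5.93, 4.85 and 7.80 RPKM in chow, 7.03, 8.20, 9.71 and 9.30 in HFD, and 5.28, 7.78, 10.3 and 5.99 in HFD+ASBTi. These groups overlapped, and the log2 change in HFD was 0.40 (limma adjusted p = 0.207). Gstz1, the maleylacetoacetate isomerase of tyrosine breakdown, stood at 21.5, 21.3, 19.6 and 21.5 RPKM in chow, 23.1, 24.7, 24.8 and 23.9 in HFD, and 22.2, 23.9, 23.6 and 22.1 in HFD+ASBTi. Every HFD and every HFD+ASBTi library lay above every chow library, but the step was small. Its log2 change in HFD was 0.20 ± 0.07 (SE; limma adjusted p = 0.0815), and it was called only when the mean-variance trend was left out (limma adjusted p = 0.0381). The span of Gstz1 overlaps that of Pomt2. Gstk1, the mitochondrial and peroxisomal class, had a log2 difference of 0.29 in HFD (limma adjusted p = 0.130), and Gstt3 one of -0.74 (limma adjusted p = 0.181).

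Sult5a1, a sulfotransferase with no well established substrate, was the Sult member that fell in HFD. It was measured at 2.30, 1.27, 1.31 and 2.57 RPKM in chow, at 1.05, 0.716, 0.489 and 0.230 in HFD, and at 1.25, 1.08, 0.751 and 0.894 in HFD+ASBTi. Chow lay above both other groups, though chow 2 and HFD+ASBTi 1 were close, and the diet groups overlapped. The HFD mean was 3.0-fold below the chow mean (0.621 ± 0.348 against 1.86 ± 0.670 RPKM, SD, n = 4), with a fitted fall of 1.09 ± 0.24 (SE; limma adjusted p = 0.0157). In HFD+ASBTi the mean was 1.88-fold below chow, and the fitted change of -0.63 was not called (limma adjusted p = 0.144). The HFD call held without each library in turn, with adjusted p up to 0.0482. Its span overlaps that of Gm20388. Sult1d1, which acts on catecholamines, stood at 5.20, 4.62, 3.11 and 5.06 RPKM in chow, 3.26, 2.71, 2.78 and 2.92 in HFD, and 2.08, 3.38, 4.40 and 3.44 in HFD+ASBTi. Only chow C7 overlapped the HFD libraries, and the change of -0.53 was not called (limma adjusted p = 0.0920). Without chow C7 it was -0.68 (limma adjusted p = 0.0408), and without HFD+ASBTi 1 (limma adjusted p = 0.0437) or with only the 2 groups fitted (0.0481) it was also called.

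Sult1a1 stood at 43.6, 31.9, 23.8 and 31.9 RPKM in chow, 17.1, 28.5, 26.9 and 40.7 in HFD, and 16.4, 29.8, 35.7 and 31.8 in HFD+ASBTi. The groups overlapped fully, with a log2 change of -0.24 in HFD (95% interval -0.91 to 0.42). The other Sult genes did not pass the RPKM filter. Sult1b1, which sulfonates thyroid hormones, stood at 0.366, 0.336, 0.213 and 0.331 RPKM in chow, 0.337, 0.406, 0.404 and 0.374 in HFD, and 0.390, 0.443, 0.305 and 0.284 in HFD+ASBTi (60 to 124 reads per library), with overlap of all groups. The Sult2a genes encode hydroxysteroid and bile acid sulfotransferases that are mainly expressed in female mouse liver. Summed over the 7 of them, their level was 0.981 ± 0.380 RPM in chow, 0.869 ± 0.462 in HFD and 1.05 ± 0.207 in HFD+ASBTi, most of it Sult2a7 with 103 reads in all. Sult2a1 had 2 reads and Sult2a2 had 18 over all 12 libraries, and 3 reads in a library correspond to 0.227 to 0.335 RPM, so changes in these genes were not detectable at this depth.

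The 17 tested Ugt genes showed no called change in any of the 3 comparisons. Ugt2b enzymes conjugate steroids, bile acids and drugs. Ugt2b5 stood at 25.8, 28.9, 28.1 and 26.4 RPKM in chow, 31.6, 31.1, 25.6 and 19.6 in HFD, and 26.0, 22.2, 22.5 and 20.6 in HFD+ASBTi. Ugt2b36 stood at 11.7, 11.6, 10.5 and 12.4 RPKM in chow, 13.3, 13.9, 12.1 and 9.30 in HFD, and 9.91, 11.1, 11.3 and 10.1 in HFD+ASBTi. For both genes the groups overlapped and HFD 4 was the lowest HFD library. In HFD the log2 change of Ugt2b5 was -0.04 (95% interval -0.36 to 0.28) and that of Ugt2b36 was 0.06 (95% interval -0.21 to 0.32). Ugt2b5 shares 34.8% of its 50-base words with Ugt2b38, so these 2 genes are uncertain as separate values. Ugt2b1 stood at 19.7, 23.7, 21.5 and 17.2 RPKM in chow, 27.5, 28.8, 22.4 and 17.5 in HFD, and 15.8, 15.9, 19.4 and 23.5 in HFD+ASBTi, with overlap. Among the 6 Ugt2b genes that passed the filter, the highest log2 change in HFD was that of Ugt2b34, at 0.36 (95% interval 0.00 to 0.72; limma adjusted p = 0.161).

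HFD 4 was the lowest HFD library for Ugt2b1, Ugt2b5, Ugt2b34, Ugt2b36, Ugt3a1, Ugt3a2 and Ugt1a1. The summed level of the hepatocyte markers was 4674 RPKM there and 2773 to 2802 in HFD 1 to 3, and that of 6 cholangiocyte markers was 10.8 RPKM in HFD 4 and 10.1 in HFD 3, against 3.67 and 4.27 in HFD 1 and HFD 2. The part of this in the results was not tested beyond leaving the library out. Without HFD 4, Ugt2b34 (log2 change 0.52, limma adjusted p = 0.0217) and Ugt3a2 (0.31, limma adjusted p = 0.0243) were called higher in HFD than in chow. Ugt3a2 belongs to a family that, in humans, uses sugars other than glucuronic acid. It ranged from 4.17 to 4.58 RPKM in chow, from 4.36 to 5.76 in HFD and from 5.04 to 5.86 in HFD+ASBTi. With all libraries its change was 0.22 in HFD (limma adjusted p = 0.12) and 0.26 in HFD+ASBTi (limma adjusted p = 0.102), where the groups did not overlap and the call was made without HFD 4 (limma adjusted p = 0.0415). Its neighbour Ugt3a1 stood at 0.998, 0.722, 0.886 and 1.07 RPKM in chow, 1.11, 1.05, 0.886 and 0.712 in HFD, and 1.34, 1.48, 0.941 and 0.947 in HFD+ASBTi, with overlap throughout.

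The Ugt1a genes are 1 locus on chromosome 1, in which alternative first exons, each with its own promoter, are spliced to a shared set of 3' exons. Ugt1a1 is the bilirubin conjugating enzyme, and Ugt1a6a and Ugt1a9 handle phenols. The 8 rows of the table are nested spans, so each holds the shared exons. The shortest, Ugt1a1 with 8.04 kb, held 83.9% to 87.3% of the reads of the longest, Ugt1a10 with 165 kb. Ugt1a1 stood at 60.5, 55.4, 43.5 and 56.3 RPKM in chow, 63.5, 59.6, 61.4 and 47.4 in HFD, and 50.4, 54.1, 61.1 and 40.7 in HFD+ASBTi. Ugt1a6a followed it with 6.18, 5.68, 4.44 and 5.72 RPKM in chow, 6.46, 6.09, 6.35 and 4.78 in HFD, and 5.14, 5.53, 6.29 and 4.18 in HFD+ASBTi. The groups overlapped in both rows, and the log2 change in HFD was between 0.07 and 0.11 in all 8 rows.

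Subtracting each span from the next gave the reads of the stretch that holds each first exon, which the rows themselves hide. This was chosen after the values were seen, and was fitted on log2(RPM + 0.5) with the rows replaced by the stretches. The stretch of 24.2 kb with the first exons of Ugt1a8 and Ugt1a9 had 266, 222, 104 and 218 reads in chow, 84, 95, 150 and 115 in HFD, and 89, 120, 77 and 43 in HFD+ASBTi. In RPM these were 24.5, 20.8, 9.16 and 20.2 in chow, 8.0, 9.21, 12.4 and 8.68 in HFD, and 8.30, 10.7, 8.59 and 4.67 in HFD+ASBTi. The 3 numbered chow libraries lay above all others, and chow C7 lay within the diet groups. The means were 1.95-fold lower in HFD and 2.32-fold lower in HFD+ASBTi than in chow. In HFD+ASBTi the fitted change of this Ugt1a9 stretch was -1.13 ± 0.28 (SE; limma adjusted p = 0.0324), where 5.52% of 13310 rows were called. In HFD it was -0.86 ± 0.28 (SE; limma adjusted p = 0.0697), where 9.80% were called. Without chow C7 both were called (limma adjusted p = 0.00443 and 0.00838), and without HFD+ASBTi 4 the HFD change was called (0.0427) and the HFD+ASBTi change was not (0.0724). The HFD+ASBTi call was also lost without chow 1, chow 2, chow 4 or HFD+ASBTi 1, with adjusted p up to 0.0996.

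None of the other stretches was called. The stretch with the Ugt1a6a first exon had 23.2 ± 1.61 RPM in chow, 28.6 ± 6.43 in HFD and 23.2 ± 2.38 in HFD+ASBTi (SD, n = 4), and that with Ugt1a6b and Ugt1a7c had 24.0 ± 2.21, 27.8 ± 5.41 and 23.0 ± 3.05 RPM. These 2 stretches held similar reads in each library, such as 271 and 273 in chow 1 and 184 and 171 in HFD+ASBTi 4. Of the 50-base words of the Ugt1a6a transcript, shared exons included, 100% occur also in Ugt1a7c and 80.6% in Ugt1a6b. The 2 stretches are therefore uncertain as separate values. The stretches of Ugt1a10 and Ugt1a2 held 0 to 6 and 1 to 10 reads per library. Reads in a stretch include introns and other genes within it, and the difference between stretches was not tested. The promoters of Ugt1a1 and Ugt1a9 are shown as the starts of the stretch that holds most reads and of the one that was lower. They are from RefSeq, build GRCm38.p6, plus strand, Ugt1a1 at chr1:88211709-88212008 and Ugt1a9 at chr1:88070529-88070828. Capitals mark a match to GTTAAT, a part of the HNF1 element and not the whole, here read from the other strand as ATTAAC.
Ugt1a1: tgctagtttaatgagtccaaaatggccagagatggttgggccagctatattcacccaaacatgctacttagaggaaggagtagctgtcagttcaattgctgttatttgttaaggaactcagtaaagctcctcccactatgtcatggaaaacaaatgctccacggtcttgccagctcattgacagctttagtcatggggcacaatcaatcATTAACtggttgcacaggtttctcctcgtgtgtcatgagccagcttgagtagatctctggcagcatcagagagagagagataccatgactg
Ugt1a9: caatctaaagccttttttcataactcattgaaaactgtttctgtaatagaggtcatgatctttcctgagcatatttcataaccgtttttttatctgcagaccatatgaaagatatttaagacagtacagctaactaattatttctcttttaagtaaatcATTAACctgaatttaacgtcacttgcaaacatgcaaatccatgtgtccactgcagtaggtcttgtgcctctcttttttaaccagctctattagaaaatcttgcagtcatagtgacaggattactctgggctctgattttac
HNF1 is a liver transcription factor. These letters, searched on both strands, begin 41 bases before the Ugt1a1 start and 91 before that of Ugt1a9, and occur in 7.10% of all RefSeq promoters and in 13 of the 61 member promoters (21.3%). Among the others is Ugt1a6a, with a match 50 bases before its start, whose stretch was not called. The Ugt1a1 and Ugt1a9 windows, aligned to each other, were identical at 48.8% of positions.

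**Figure D5:**
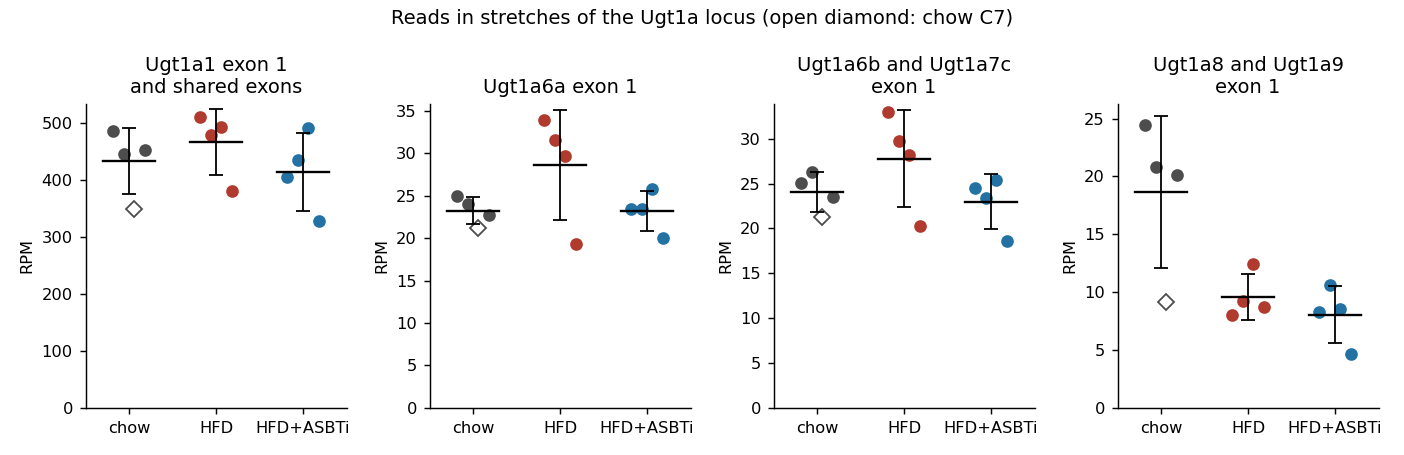
RPM in each library for 4 non-overlapping stretches of the Ugt1a locus; lines are group means with SD (n = 4), and the open diamond is chow C7. The stretch with the Ugt1a8 and Ugt1a9 first exons (right) runs from 20.2 to 24.5 RPM in the numbered chow libraries and from 4.67 to 12.4 in the diet groups, with chow C7 at 9.16.

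Adding the inhibitor to the diet changed no tested member by the test. Between HFD+ASBTi and HFD, 0 of 36 members were called by limma, where 0.0949% of the 6325 genes were (0.0316% higher and 0.0632% lower). An unadjusted p under 0.05 was reached by 1 member, Gsta4, and by 586 of the 6325 genes. With voom on the recovered reads 0 of 43 members were called and 2 had an unadjusted p under 0.05, where 0.0386% of genes were called and 0.0231% lower. With RPM 0 of 43 were called and 5 had an unadjusted p under 0.05, where 0.0451% of genes were called and 0.03% lower. For voom and RPM the share of all genes under that unadjusted threshold was not counted. The median log2 change was -0.15 over the 36 members, -0.07 with the overlapping Ugt1a rows counted once, and 0.01 over all genes tested. It was below 0 in 26 of 36 members, in 19 of 29 (65.5%) with the Ugt1a locus counted once, and in 46.1% of all genes tested. The log2 difference was 0.25 for Gstp1 (95% interval -0.30 to 0.79), 0.11 for Gstp2 (-0.42 to 0.65), 0.04 for Gsto1 (-0.14 to 0.22) and 0.46 for Sult5a1 (-0.09 to 1.01). These intervals hold 0 but do not show that the levels were equal.

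HFD+ASBTi and HFD were both compared with the same chow libraries, so their differences from chow are not independent. Between HFD+ASBTi and chow, 3 of 36 members fell and none rose, where 2.31% of all genes were called lower and 4.74% higher (7.05% in all). Gstp1 was 2.11-fold lower than in chow by the means (log2 change -1.08, limma adjusted p = 0.0258), and Gstp2 was 2.28-fold lower (-1.22, limma adjusted p = 0.0157). Gsto1 was 1.31-fold lower (-0.34, limma adjusted p = 0.0319). Without chow 2 none of the 3 was called (0 of 36), and Gstp2 was called without any other library. The Gstp1 call was also lost without chow 1, chow C7, HFD+ASBTi 1, HFD+ASBTi 2 or HFD+ASBTi 3, with adjusted p up to 0.0773, and the Gsto1 call without chow C7, chow 4, HFD+ASBTi 1, HFD+ASBTi 2 or HFD+ASBTi 4, with adjusted p up to 0.0835. Without the filter on low values Gstp1 (limma adjusted p = 0.0590) and Gsto1 (0.0573) were not called, nor was Gsto1 with only the 2 groups fitted (0.0532). The direction was kept in each of these fits. On the RPM scale Gsta2 and Gsta4 joined them, with 5 of 43 members lower against 1.64% of genes called lower and 5.51% in all. With voom 4 of 43 were called lower, Gsta4 not among them, where 1.43% of genes were called lower and 4.41% in either direction.

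Genes that supply, serve or undo conjugation were described by lists chosen alongside the members. For these lists and those that follow, the background in HFD was 4.46% of the 6325 genes called lower and 7.65% higher. In HFD+ASBTi against chow it was 2.31% lower and 4.74% higher, and 0.0949% were called between HFD+ASBTi and HFD. Of 16 tested genes of glutathione supply and use, 3 fell in HFD and 1 rose, with a median log2 change of -0.02 against 0.02 over all genes. Cth, the last step from methionine to cysteine, fell from 5.29 ± 1.25 to 2.7 ± 0.406 RPKM (SD, n = 4), and Cbs, the step before it, fell from 6.40 ± 0.499 to 4.30 ± 0.836. Glrx, a glutathione-dependent thiol reductase, fell from 3.43 ± 0.246 to 2.05 ± 0.379 RPKM. Anpep, which splits a peptide left by glutathione breakdown, rose from 1.69 ± 0.139 to 2.36 ± 0.420 RPKM. Of the 2 tested genes among the other glutathione transferases, Mgst1, the microsomal enzyme, rose from 86.9 ± 3.36 to 116 ± 17.3 RPKM in HFD. Of 6 tested genes of glucuronic acid supply and hydrolysis, 1 rose, Ugp2, which makes UDP-glucose, from 2.10 ± 0.442 to 4.12 ± 0.657 RPKM. None of 6 tested genes of sulfate donor (PAPS) supply and sulfate removal and none of 5 conjugate exporters was called.

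Of 15 tested conjugating enzymes outside the 3 families, 6 rose and 3 fell in HFD, with a median log2 change of 0.23. Inmt, an indolamine methyltransferase, rose from 32.1 ± 8.65 to 122 ± 16.5 RPKM, and Nnmt, which methylates nicotinamide, fell from 10.6 ± 1.87 to 2.73 ± 1.49. Gnmt, the glycine methyltransferase, fell from 213 ± 62.5 to 93.2 ± 16.0 RPKM, and Baat, which conjugates bile acids to taurine or glycine, fell from 11.5 ± 0.685 to 8.91 ± 0.651. Glyat, the glycine acyltransferase, rose from 6.89 ± 0.532 to 9.29 ± 0.960. None of the 15 was called between HFD+ASBTi and HFD or between HFD+ASBTi and chow, where 0.0949% and 7.05% of all genes were called.

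Among 15 tested regulators, 3 rose and 1 fell in HFD. Nfe2l2, which encodes NRF2, rose from 1.23 ± 0.210 to 2.13 ± 0.226 RPKM (limma adjusted p = 0.00687), and Ppara, the fatty acid receptor, rose from 2.38 ± 0.150 to 3.91 ± 0.696. Bach1, a repressor at the same elements as NRF2, rose from 0.635 ± 0.123 to 0.948 ± 0.102. Hnf4a, a hepatocyte factor that is also on the hepatocyte marker list, fell from 19.2 ± 1.08 to 11.3 ± 1.60 RPKM (limma adjusted p = 0.00126). Nr1i2 (PXR) was 1.71 ± 0.132 in chow and 1.63 ± 0.286 RPKM in HFD, Nr1i3 (CAR) was 36.2 ± 3.52 and 44.2 ± 19.0, and Ahr, the dioxin receptor, was 0.697 ± 0.0929 and 0.471 ± 0.138, and none of these was called. Of 6 tested NRF2 marker genes none was called, and their median log2 change was 0.39. Of 8 tested marker genes of CAR and PXR, 4 fell in HFD and the same number in HFD+ASBTi against chow. Of all genes tested, 4.46% and 2.31% were called lower. Cyp3a11 fell from 92.3 ± 15.5 to 10.9 ± 6.90 RPKM in HFD and stood at 3.48 ± 1.60 in HFD+ASBTi, and Ces2a fell from 17.1 ± 1.49 to 6.95 ± 1.13 and stood at 6.11 ± 1.14. Cyp2c29 fell from 15.4 ± 2.85 to 4.93 ± 2.31 and Cyp3a13 from 4.51 ± 0.602 to 2.84 ± 0.543. The single tested AhR marker gene was not called.

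Lists of male and female liver genes and of other cell types were read beside these results. Of 10 tested male-biased genes, 1 rose and 1 fell in HFD, and none of 3 tested female-biased genes was called. Of 8 hepatocyte markers 2 fell, Hnf4a and Cps1. Over the 8 markers the median log2 change from chow was -0.43 in HFD and -0.46 in HFD+ASBTi. It was 0.02 and 0.03 over all genes tested. The summed level of the markers was 2764 to 3130 RPKM in chow, 2773 to 4674 in HFD and 2843 to 3150 in HFD+ASBTi. Red blood cell markers summed to 17.1 to 79.1 RPKM in chow, 95.1 to 172 in HFD and 84.4 to 167 in HFD+ASBTi, and 2 of 3 tested rose. Macrophage markers ran from 13.1 to 31.7 RPKM in chow and from 19.4 to 24.7 in HFD, with Cd68 the 1 called of 6. Endothelial markers ran from 3.98 to 5.67 and from 2.80 to 4.24 RPKM, and stellate markers from 1.60 to 3.13 and from 1.42 to 3.86, with none called. Adipose markers ran from 0 to 0.876 and from 1.0 to 6.87 RPKM, with 1 of 1 tested called. Of the intestine and pancreas list, Prss1, Try4, Amy2a5 and Pnlip were at 0 in all libraries, and Fabp2 was called higher. The part of other cells or blood in the fall of the Gst and Sult members was not tested.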

How the data were processed

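PolyA RNA of flash-frozen liver was sequenced after library preparation with the Illumina TruSeq RNA kit, per the labels' protocols. Bowtie 0.12.7 and build mm9 are named in the submitters' processing notes, whereas the counting tool, read filters and multi-mapping rule are not stated there. The authors' deposited table holds RPKM for 33763 transcripts in 12 libraries.

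Whole reads were recovered from the RPKM values with the counted length, which was the genomic span, and the library total solved from them, for 96.8% of transcripts with a value (tolerance 1e-06 reads) and for every member. RPM and the Ugt1a stretches come from these reads. The floor of 3 reads covers counting error only. The main test was limma 3.58.1 (R 4.3.3), two-sided, on log2(RPKM + 0.5) with its trend option for the mean-variance relation, 12 libraries in 1 model with 9 residual degrees of freedom. Log2 changes on this scale understate the change of low genes, whereas folds are of mean RPKM. The 95% intervals use the standard error of the limma fit with 9 degrees of freedom. The p-values of limma use more degrees of freedom, so the intervals are somewhat wider than its own. The steps were tested on simulated data. A fit of voom on recovered reads and a fit with Ugt1a stretches were added after seeing the data.

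The members, the 20 gene lists and the tests were chosen with earlier results of these data known. Values in every library are given for called members (up to 9 per family), the 2 highest per family and a panel of 20 (Sult2a1 and Sult2a2 as totals). Up to 5 called genes per list are named, with group means. Gsta2, Gstk1, Gstt3, Ugt2b34, Ugt3a2 and the Ugt1a stretches fall outside that rule. Sequences and spans came from RefSeq and GENCODE tables of GRCm38, so gene coordinates of the measured transcripts are not given. Promoters were aligned end to end with gaps. Tables and plots used Python 3.11.15, pandas 2.3.3, numpy 2.4.6 and matplotlib 3.10.9.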

Additional observations from a re-analysis of the deposited data

Results flagged for a closer look

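Among 90 groups of 4 values examined, 2 held a library far from the other 3. That is a smaller share than the about 1 in 20 that chance gives. Gstz1 in chow C7 was 19.6 RPKM (3793 reads), against 21.3 to 21.5 RPKM in the other chow libraries. The stretch of the Ugt1a locus between the starts of Ugt1a5 and Ugt1a2 had 16.4 RPM in HFD 3, against 5.43 to 7.27 RPM in the other HFD libraries, and 8.04 to 19.0 RPM in HFD+ASBTi.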

How the results depend on the processing

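Of the values of named members under the alternatives, 1280 kept their side of the threshold, 9 passed it and 16 no longer did, and no call changed direction. Of the values that were not called, 13 took the opposite sign in 1 to 6 alternatives, among them Gstp2 and Gsto1 in HFD+ASBTi against HFD. The 4 calls in HFD against chow held under all of them. Members called higher in HFD were 1 without the mean-variance trend and 0 to 2 with 1 library left out, and members called lower were 4 to 5. All genes called there were 766, and 1310 with RPM, 1185 with voom on recovered reads, 1305 with RPM and Ugt1a stretches, in part because more genes were tested, and 458 to 864 with 1 library left out, lowest without chow 2, with 494 without chow 1, 488 without HFD 2 and 475 without HFD 3. For HFD+ASBTi against HFD 6 genes were called, 2 with pseudocount 1, 0 without the filter on low values, 1 with a mean RPKM of at least 1, 3 with only these 2 groups, 2 without the trend and 0 to 9 with 1 library left out, and members stayed at 0. With the replicate block of title numbers 3 genes and 0 members were called. The same-numbered libraries correlated at only 0.0408 to 0.0691 in their deviations and not always best with each other. They were not paired in the main test, though with 4 libraries a group this cannot exclude a pairing. For HFD+ASBTi against chow 446 genes were called, 734 with RPM, 735 with Ugt1a stretches, and 142 to 521 with 1 library left out, lowest without chow 2, with 224 without chow 1, 232 without chow C7, 276 without chow 4, 230 without HFD+ASBTi 1 and 228 without HFD+ASBTi 2. Members lower were 3, and 1 without the filter, 5 with RPM, 6 with Ugt1a stretches and 0 to 4 with 1 library left out, members higher 0 to 1. Where no construction is named, the cause was not tested. Scaling to the same median or quantiles moved the median of all genes by under 0.1. Depth limits the 16 members with under 100 reads.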

Other observations

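Members below the RPKM filter still had reads. Sult1c2 had 35, 41, 33 and 21 reads in HFD against 17, 23, 12 and 14 in chow and 18, 25, 12 and 12 in HFD+ASBTi, with a log2(RPM + 0.5) change of 0.73 in HFD (limma adjusted p = 0.0794). HFD 4 overlapped chow. Ugt2b37 had 14 to 16 reads in each chow library and 18 to 34 in HFD, a change of 0.56 (limma adjusted p = 0.159). Scaled to depth, HFD 3 (1.49 RPM) was level with chow 4 (1.48 RPM). Sult4a1 had 45 reads in all, 22 of them in 1 library, HFD 2.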
